A study of Homo sapiens with 3 samples.

Results

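Transcripts of 10 genes of the BCL2 family of apoptosis regulators were examined in A375 melanoma cells, taken by symbol out of 58037 genes in the count table. These were 4 antiapoptotic genes (BCL2, BCL2L1, MCL1 and BCL2A1), 4 BH3-only genes (BCL2L11, BBC3, PMAIP1 and BID) and 2 effectors (BAX and BAK1). The rule picked genes by name, but the members were chosen with earlier results of these data known. The BCL2 family decides whether the outer membrane of the mitochondrion is opened during apoptosis. Its antiapoptotic proteins hold the effectors BAX and BAK1 in check, the effectors form the pores that release cytochrome c, and the BH3-only proteins start the process by binding the antiapoptotic proteins or the effectors. In melanoma the family is known for high MCL1, for BCL2A1 as a target of the melanocyte factor MITF, and for BIM, the product of BCL2L11, as a protein that MAPK signalling keeps low.

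The data came from A375, an established human melanoma cell line, cultured for 24 h in plain serum-free DMEM (control), in the secretome of adipocytes from young donors (YA-A375) or in that of adipocytes from old donors (OA-A375). A secretome was serum-free medium conditioned by adipocytes that had been differentiated in culture from human skin preadipocytes. In the study's donor list the old donors were all male and mostly from a biobank, with varied body sites. The young donors were nearly all female, with purchased chest preadipocytes. Which donors supplied these secretomes was not given, so donor age cannot be told apart from sex, site or source. Each group had 1 library, all from a single cell line, and how many adipocyte cultures supplied each secretome was not given in the sources used here. No difference below therefore has a replicate check or a p-value, and both secretomes were read against the same control library. Intervals are 95% and cover the counting error of the libraries only, not variation between cultures. PCR copies of a molecule were not marked and are counted as separate reads. The intervals may therefore be too narrow even for counting error. Fewer cells with a transcript and less of it per cell cannot be told apart in such bulk samples.

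Totals ran from 18089008 counts in OA to 21448195 in control, and counts were divided by size factors to give normalised read counts. Of 8 melanocytic and neural crest markers, SOX10 had no count in any library and TYR had 2 or fewer, whereas MITF had 764 to 1221 counts and S100B 550 to 843. The 9 adipocyte markers summed to 661 (control), 1194 (YA) and 473 (OA) normalised counts. LPL had 353, 583 and 30 counts, PLIN4 284, 579 and 321, and CIDEC 6, 31 and 36, while ADIPOQ had at most 1 count and LEP and CIDEA had 0 in each library. The 10 fibroblast markers summed to 709.5, 896 and 629.7, with COL1A2 and COL3A1 at 2 counts or fewer and DPT at 0. PDGFRB, with 515, 568 and 334 counts, made up most of each sum. DCN had 13, 138 and 24 counts, COL1A1 75, 117 and 84, and PDGFRA 76, 20 and 51. The share of mitochondrially encoded transcripts was 1.51% of all counts (control), 2.47% (YA) and 1.59% (OA). These sums moved with the secretomes, and their part in the differences below was not tested.

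The feature that names the BH3-only proteins is the BH3 helix, whose core is a leucine, any 3 residues, a glycine or alanine, and an aspartate. That pattern was searched in the principal coding transcript of each member (GENCODE 29, GRCh38). It occurred exactly once in 9 of the 10 members and not in BCL2A1, while 24.8% of 19553 genes with a principal coding transcript held it at least once. A match is a description of the letters and not a test of binding. The 30 bases around each core are shown so that the shared element of opposing members can be compared, 5′ to 3′ on the coding strand, with the codons for leucine, glycine or alanine, and aspartate in capitals.
BCL2, chr18:63318355-63318384, minus strand: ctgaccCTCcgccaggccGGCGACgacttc
BCL2L1, chr20:31721928-31721957, minus strand: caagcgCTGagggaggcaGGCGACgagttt
MCL1, chr1:150578871-150578900, minus strand: gagaccTTAcgacgggttGGGGATggcgtg
BCL2L11, chr2:111150097-111150126, plus strand: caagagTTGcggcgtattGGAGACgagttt
BBC3, chr19:47226585-47226614, minus strand: gcccagCTGcggcggatgGCGGACgacctc
PMAIP1, chr18:59902667-59902696, plus strand: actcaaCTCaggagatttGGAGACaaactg
BID, chr22:17739421-17739450, minus strand: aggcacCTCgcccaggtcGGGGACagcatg
BAX, chr19:48955781-48955810, plus strand: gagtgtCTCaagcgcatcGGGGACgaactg
BAK1, chr6:33575393-33575422, minus strand: cggcagCTCgccatcatcGGGGACgacatc
The core starts at residue 29 of 54 in PMAIP1, the shortest of these proteins, and at residue 213 of 350 in MCL1, the longest. Only BBC3 carries the alanine codon in place of glycine.

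Levels were compared between genes as normalised counts per kilobase of annotated exon. MCL1, a short-lived antiapoptotic protein, had the most abundant transcript of the family in each library, at 2809 (control), 4339 (YA) and 3108 (OA) per kb. Its share of the antiapoptotic counts per kb was 88.9% (control), 89.8% (YA) and 88.8% (OA). BCL2, the founding member and the target of venetoclax, lay between 23.1 and 24.8 per kb, below BCL2L1 at 305 to 469. BCL2A1 was the lowest member in control and YA, at 4.33 and 1.74 per kb, and reached 61.8 in OA. Among proapoptotic genes, BAX (534 to 643 per kb) and PMAIP1 (326 to 475) together held 72.7% (control), 70.5% (YA) and 73.8% (OA) of the counts per kb. BCL2L11 was the lowest proapoptotic member on this scale, at 41.2 per kb in control, 30.8 in YA and 22.9 in OA. Exon length takes in every annotated exon of a gene, used in A375 or not. In raw counts BBC3 was the lowest in control, at 220 against 291, and BCL2L11 in YA and OA.

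**Figure D1:**
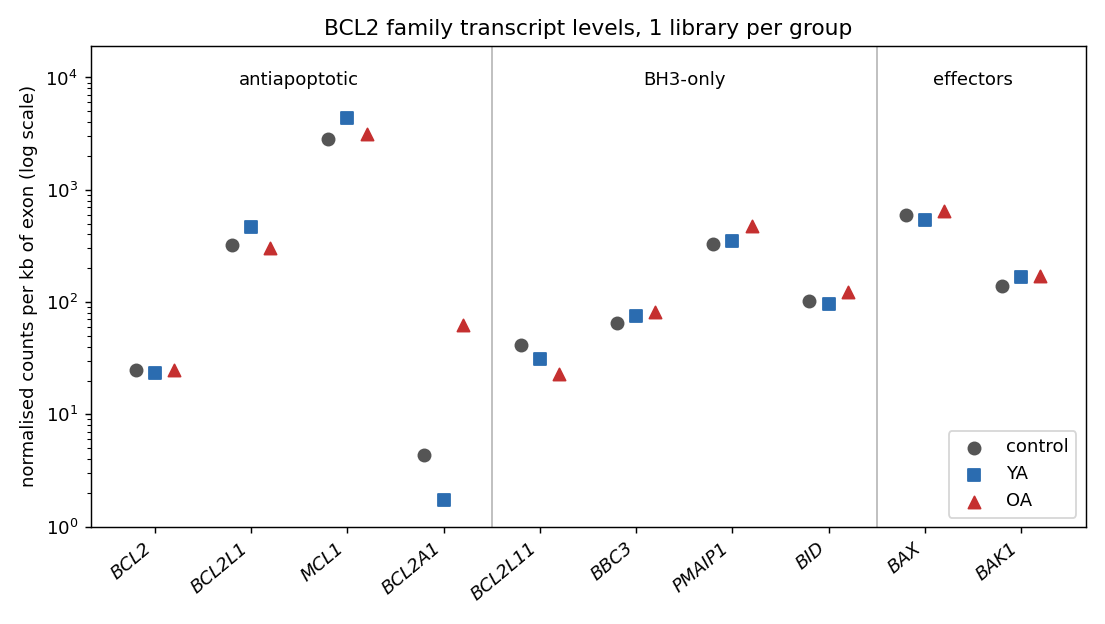
Normalised counts per kilobase of exon (vertical axis, log scale) for the 10 members in the control, YA and OA libraries, 1 point per library and no error bars. MCL1 lies at the top in each library, and BCL2A1 is the member whose points spread most, from 1.74 in YA to 61.8 in OA.

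The first comparison asked how the family differed after young secretome. MCL1 and BCL2L1, both antiapoptotic, were higher in YA than in control, BCL2L11 was lower, and BCL2 itself was not measurably different. Of the 10 members, 3 (30%) were past 1.2-fold on the higher side and 2 (20%) on the lower, where 17.4% of the 14413 genes tested were higher and 16.4% lower. MCL1 and BCL2L1 had a counting interval wholly above 1.2-fold, which makes 2 members, and 0 members had one wholly below, against 6.03% and 4.44% of all genes. The family's median log2 fold change was 0.01, and that of all genes was -0.02. The 2 lower members were BCL2L11 and BCL2A1, and BCL2A1 passed the filter on low counts only through OA. Without BCL2A1, 3 of 9 members were higher and 1 lower, and the median log2 fold change was 0.10.

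MCL1 counts numbered 13031 (control), 20067 (YA) and 12102 (OA), so YA stood apart from the other libraries. Its fold change in YA was 1.54 (interval 1.51 to 1.58), higher than that of 94.5% of genes tested. BCL2L1, which encodes the antiapoptotic BCL-XL and by splicing a shorter proapoptotic form, had 1136, 1643 and 899 counts. It was 1.45-fold of control in YA (1.34 to 1.57), and the count per gene does not separate its splice forms. The antisense gene ABALON overlaps 1424 exonic bases of BCL2L1, or 43.0% of its exons, and had 27, 37 and 16 counts. The use of strand in counting was not stated, so reads of the pair cannot be told apart. Of the other members, MCL1, BBC3 and BAK1 share 2 to 91 exonic bases with genes of low count, as GGNBP1 with BAK1 (0, 1 and 1 counts). BCL2 counts were 308, 288 and 260. YA was 0.938-fold of control for BCL2 (0.796 to 1.10), and a difference from control was not detectable at this depth.

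Among the BH3-only genes, BCL2L11 was 0.748-fold of control in YA (0.624 to 0.895), from 291 to 217 counts. MIR4435-2HG, on the opposite strand, shares 727 exonic bases with BCL2L11 (10.9%) and had 587, 496 and 359 counts. BBC3, which encodes PUMA, and PMAIP1, which encodes NOXA, are induced by cell stress, and both had intervals in YA that held 1. BBC3 had 220 counts in control and 253 in YA (1.15-fold, 0.959 to 1.39), and PMAIP1 had 774 and 829 (1.07-fold, 0.973 to 1.19). BID, which links death receptors to mitochondria, had 482 and 452 (0.941-fold, 0.825 to 1.07). The effectors differed little and in opposite directions in YA. BAX had 1648 counts in control and 1463 in YA (0.890-fold, 0.829 to 0.956), and BAK1 had 329 and 394 (log2 fold change 0.26, fold interval 1.03 to 1.39), a value at the threshold itself.

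**Figure D2:**
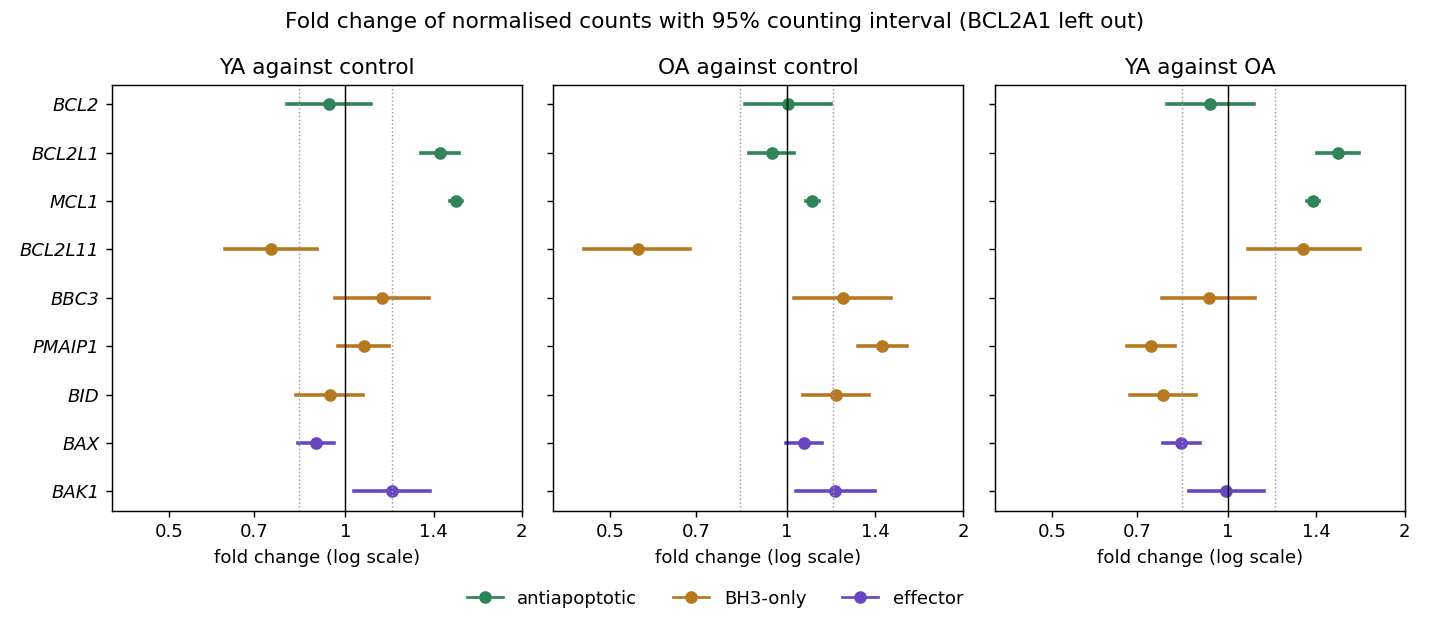
Fold change of normalised counts (horizontal axis, log scale) for 9 members in each of the 3 comparisons, with the 95% counting interval as a bar and 1.2-fold as dotted lines. MCL1 and BCL2L1 lie beyond the line only in the 2 panels with YA as numerator, and BCL2L11 is below 1 in both secretomes against control, at 0.748 and 0.557.

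Apart from BCL2A1, the members past 1.2-fold after old secretome were all proapoptotic, 4 of 6 higher and 1 lower. In OA against control, 5 of the 10 members (50%) were at least 1.2-fold higher and 1 (10%) lower, beside 21.1% and 21.5% of all genes tested. The interval lay wholly beyond 1.2-fold for BCL2A1 and PMAIP1 on the higher side and BCL2L11 on the lower, where 9.04% and 9.08% of all genes did so. The median log2 fold change was 0.21 over the members and 0.01 over all genes. BCL2A1 passed the filter on low counts only through OA, and without it 4 of 9 members were higher and 1 lower. Of those 9, 1 member on each side had its interval wholly beyond 1.2-fold, close to the shares of all genes. Their median log2 fold change was 0.15.

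BCL2A1, an antiapoptotic gene on chr15:79960889-79971446 (minus strand) that NF-kB induces in many cells, was counted 5 (control), 2 (YA) and 60 (OA) times. OA was 14.3-fold of control with a wide interval (5.80 to 45.6), and no other member differed as far. The YA value of 0.401-fold had an interval from 0.0382 to 2.45, so its direction was not measurable. Over 3 libraries and 11162 genes whose normalised counts averaged at least 100, the 5 genes nearest to its log2 fold changes were IL1B, HAS2, DCC, UCA1 and CXCL1. Distance was Euclidean over the log2 fold changes of YA and OA against control, and the order rests in part on the YA value of BCL2A1, from 2 and 5 counts, whose direction was not measurable. IL1B, at a distance of 0.726, had 154 (control), 109 (YA) and 1075 (OA) counts. HAS2 had 38, 32 and 382, DCC 43, 25 and 240, and UCA1 197, 117 and 922. CXCL1, at 1.22, had 691, 728 and 4584. HAS2 and DCC reached the average of 100 only through OA, and BCL2A1 itself averaged 24.7, below that limit.

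PMAIP1 counts were 774 (control), 829 (YA) and 945 (OA), and after scaling OA was 1.45-fold of control (1.32 to 1.60). BBC3 was 1.25-fold (1.03 to 1.51), with 220 counts in control and 230 in the shallower OA library. BID was 1.21-fold (1.07 to 1.38) from 482 and 491 counts, and BAK1 1.21-fold (1.04 to 1.41) from 329 and 334. Both lay close to the threshold, and BAK1 was inside it under TMM scaling. BAX had 1648 and 1481 counts, or 1.07-fold (0.997 to 1.15). BCL2L11 went the other way, from 291 to 136 counts, and was 0.557-fold of control (0.451 to 0.685), lower than all but 4.97% of genes. Of the antiapoptotic genes, MCL1 was 1.11-fold (1.08 to 1.13), BCL2L1 0.943-fold (0.863 to 1.03) and BCL2 1.01-fold (0.849 to 1.19). Under TMM scaling the log2 fold change of BCL2 was -0.01 in place of 0.01.

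**Figure D3:**
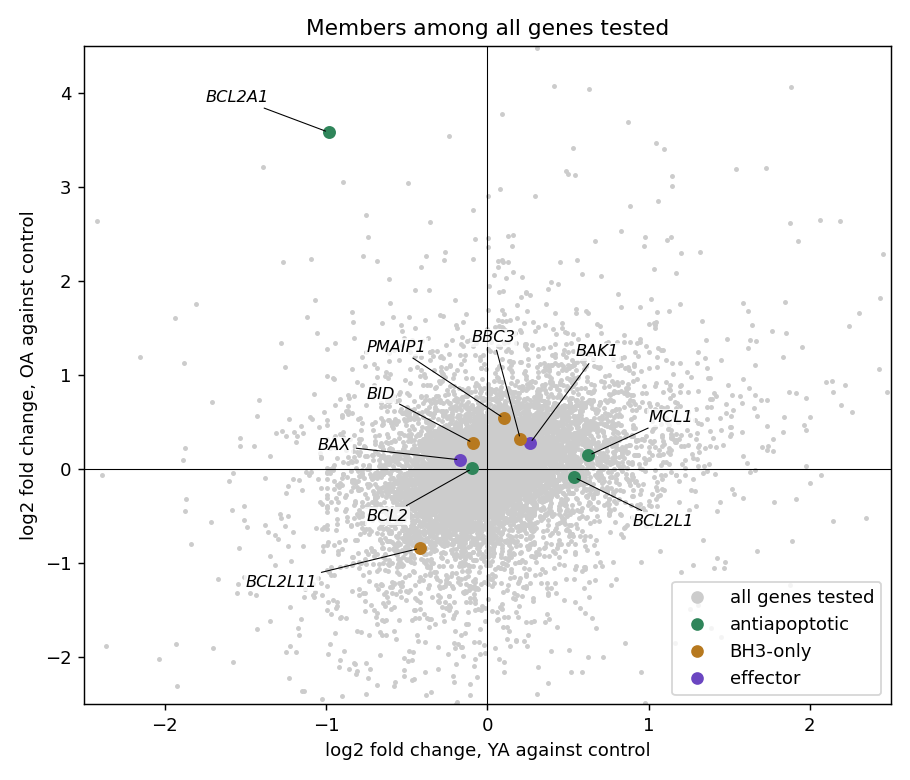
Log2 fold change in YA against control (horizontal axis) and in OA against control (vertical axis) for all genes tested (grey) and the 10 members (coloured by role). Both axes share the control library, and 89 genes lie outside the plotted range. BCL2A1 is at 3.58 on the vertical axis, and the other members are between -0.84 and 0.54 on it.

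Between the secretomes directly, MCL1 and BCL2L1 were higher in YA and PMAIP1, BID and BAX were lower in YA. There were 3 members (30%) at least 1.2-fold higher in YA and 4 (40%) lower, where 23.0% and 21.5% of all genes were. The interval was wholly beyond 1.2-fold for 2 members on each side, MCL1 and BCL2L1 as higher and BCL2A1 and PMAIP1 as lower, beside 10% and 9.03% of all genes. Without BCL2A1, which passed the filter only through OA, 3 of 9 members were lower, 1 of them with its interval wholly beyond 1.2-fold. BCL2L1 was 1.54-fold higher in YA than in OA (1.42 to 1.67) and MCL1 1.40-fold (1.36 to 1.43). PMAIP1 was 0.739-fold (0.672 to 0.812), BID 0.775-fold (0.681 to 0.883) and BAX 0.832-fold (0.773 to 0.895). BAX lay at the threshold and was inside it under both other scalings. BCL2A1, with 2 counts in YA and 60 in OA, was 0.0281-fold (0.00332 to 0.106). BCL2L11 was 1.34-fold higher in YA than in OA (1.08 to 1.68), though it was below control in both.

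The antiapoptotic genes were then set against the proapoptotic genes. The median log2 fold change of the antiapoptotic genes minus that of the proapoptotic genes was 0.21 in YA against control, -0.20 in OA against control and 0.38 in YA against OA. Each difference was larger in size without BCL2A1, at 0.53, -0.27 and 0.67. With the mean in place of the median, which gives BCL2A1 its full size, the difference was 0.04 in YA against control, 0.80 in OA against control and -0.76 in YA against OA.

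Ratios taken within a library do not depend on the scaling between libraries. The sum of antiapoptotic counts per kb was 2.48 times the proapoptotic sum in control (2.39 to 2.57), 3.85 times in YA (3.71 to 3.99) and 2.31 times in OA (2.22 to 2.40). MCL1 dominates that sum. Without MCL1 the ratio was 0.276 (control), 0.393 (YA) and 0.258 (OA), which is 1.42-fold of control in YA (1.31 to 1.55) and 0.936-fold in OA (0.849 to 1.03). BCL2L1 made up most of that smaller sum, at 323 (control), 469 (YA) and 305 (OA) per kb. The smaller sum also held BCL2A1, at 4.33, 1.74 and 61.8 per kb, which raised the OA ratio. A ratio without MCL1 and BCL2A1 was not computed.

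There are 18 pairs of an antiapoptotic and a proapoptotic gene without BCL2A1, and they are not independent because each gene enters several. No share over pairs of other genes was computed, so the counts of pairs have no background beside them. In YA 14 ratios were above control, 12 of them with an interval wholly above 1. All 12 had MCL1 or BCL2L1 as numerator. The largest was MCL1 to BCL2L11, at 2.07-fold of control (1.73 to 2.47), and the MCL1 to BAX ratio was 1.73-fold (1.61 to 1.87). BCL2 as numerator gave ratios from 0.781 to 1.25-fold in YA. In OA 14 of the 18 ratios were below control, 7 with an interval wholly below 1. BCL2L1 was the numerator in 5 of those 7. BCL2L1 to PMAIP1 was the lowest at 0.648-fold (0.570 to 0.738), and MCL1 to PMAIP1 was 0.761-fold (0.690 to 0.839). The 3 ratios over BCL2L11 went the opposite way in OA, from 1.69-fold for BCL2L1 to 1.99-fold for MCL1.

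**Figure D4:**
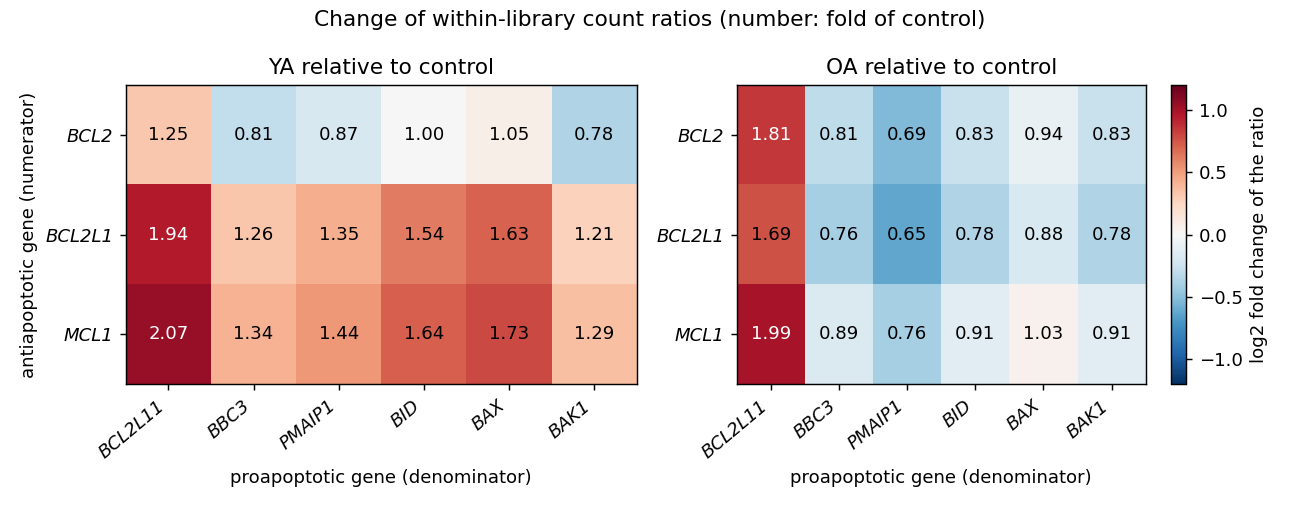
Fold change of the within-library ratio of each antiapoptotic gene (rows, BCL2A1 left out) to each proapoptotic gene (columns) in YA and OA relative to control, with colour on a log2 scale. The MCL1 and BCL2L1 rows are above 1 throughout in YA, from 1.21 to 2.07, and in OA the column of BCL2L11 is the one above 1 in every row.

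Other genes of the pathway were counted from lists by function. Their counts past 1.2-fold against control are to be read beside the shares of all genes tested, 17.4% higher and 16.4% lower in YA and 21.1% and 21.5% in OA. Of 15 further BCL2 family genes, 10 were tested, with 0 higher and 2 lower in YA against control and 3 higher and 1 lower in OA. The 2 lower in YA and the 3 higher in OA were within 1 gene of those shares. The gene furthest from control was BMF, a BH3-only gene, with 169 (control), 95 (YA) and 33 (OA) counts. It was 0.564-fold in YA (0.434 to 0.729) and 0.233-fold in OA (0.155 to 0.339), so that like BCL2L11 it was lowest in OA. BCL2L12 and BAD, another BH3-only gene, were 1.36-fold (1.14 to 1.61) and 1.34-fold (1.12 to 1.61) of control in OA.

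Downstream of the pore, 13 genes of the apoptosome, the caspases and mitochondrial factors were tested, and their median log2 fold change was -0.14 for YA and -0.04 for OA. In YA 0 were higher and 2 lower, and in OA 3 were higher and 2 lower, at or below the shares of all genes except for the higher side in OA, which was close to it. CYCS, which encodes cytochrome c, had 1863, 1641 and 2137 counts and was 1.37-fold of control in OA (1.28 to 1.45). ENDOG, a mitochondrial nuclease, was 1.36-fold in OA with an interval that held 1 (0.937 to 1.97).

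Among inhibitor of apoptosis genes, 5 of 7 were tested, and 1 was higher in YA and 2 in OA, too few genes to set against the shares of all genes. BIRC3, which encodes cIAP2 and is an NF-kB target like BCL2A1, had 130 (control), 288 (YA) and 886 (OA) counts. Relative to control it was 2.22-fold in YA (1.80 to 2.75) and 8.12-fold in OA (6.75 to 9.84). BIRC5, which encodes survivin, was 1.34-fold in OA (1.26 to 1.43), and BIRC2 was 1.10-fold (1.03 to 1.18).

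The death receptor pathway, which reaches the family through BID, had 12 of 15 genes tested. In YA 3 were higher and 2 lower (median log2 fold change 0.05), and in OA 7 were higher and 0 lower (median 0.28). The YA counts were within 1 gene of the shares of all genes (17.4% and 16.4%). The 7 higher in OA stand beside 21.1% of all genes. Of those 7, 3 had an interval wholly beyond 1.2-fold, beside 9.04% of all genes. TNFRSF1A, the main TNF receptor, had 4002, 5561 and 5699 counts, or 1.39-fold in YA (1.34 to 1.45) and 1.70-fold in OA (1.63 to 1.77). FAS was 1.04-fold in YA (0.875 to 1.24) and 1.64-fold in OA (1.39 to 1.94). TNFRSF25, a further receptor of the family, had log2 fold changes of 0.58 in YA and 0.37 in OA.

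Of 14 transcription factors and ubiquitin enzymes that act on the members, 3 were higher and 2 lower in each secretome, within 1 gene of the shares of all genes except for the lower side in OA, which was 1 to 2 genes below it. The 3 that were higher in YA were DDIT3, ATF4 and HUWE1. DDIT3, which encodes the stress factor CHOP, was 1.72-fold (1.32 to 2.25), ATF4, which acts upstream of it, 1.40-fold (1.36 to 1.45), and HUWE1, a ubiquitin ligase for MCL1 protein, 1.27-fold (1.24 to 1.29). In OA, DDIT3 was 1.40-fold of control (1.05 to 1.87), ATF4 1.23-fold (1.19 to 1.27) and HUWE1 1.08-fold (1.06 to 1.11). MITF had 1221, 764 and 881 counts, 0.628-fold in YA (0.573 to 0.688) and 0.860-fold in OA (0.787 to 0.938). FOXO1, a forkhead factor of the group that drives BCL2L11, was 0.934-fold in YA (0.791 to 1.10) and 0.584-fold in OA (0.477 to 0.713). FOXO3, of the same group, was 0.822-fold in YA (0.737 to 0.916) and 0.795-fold in OA (0.708 to 0.892).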

How the data were processed

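Poly(A) RNA libraries of 3 samples, 1 each of control, YA and OA, were analysed. The authors deposited 1 table of unnormalised read counts for each gene, and the submitters' processing notes name STAR 2.5.1b, featureCounts, R 3.6.1 and hg38. The annotation release and use of strand are not given in the sources used here. Size factors came from the median of ratios (DESeq2 1.42.0, R 4.3.3). Genes averaging at least 20 normalised counts were kept (14413), and their log2((a + 1)/(b + 1)) was computed. Calls used 1.2-fold, the cutoff in the study's methods read as a linear fold. Intervals of folds are Clopper-Pearson, those of ratios within libraries a normal approximation on the log scale. With 1 library per group, edgeR and DESeq2 tests were not possible.

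Exon lengths and overlaps came from GENCODE 29 on GRCh38, which matched 57433 of 58037 identifiers, and the counts may rest on another release. Python 3.11.15, scipy 1.17.1 and Biopython 1.88 were used, and the procedure was tested on simulated counts. Members and lists were chosen with earlier results of these data known. The text names all members, up to 3 genes per list with the largest fold change against control, genes whose exons overlap a member, and 5 genes nearest to the most variable member. ATF4, HUWE1, FOXO3 and PDGFRB were named after their values were seen. Some genes that the rule names are not reported here. Alternatives were TMM scaling (edgeR 4.0.16), total-count scaling, a pseudocount of 5, other filters and thresholds, and the mean of members.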

Additional observations from a re-analysis of the deposited data

How the results depend on the processing

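The fold changes of the 10 members in 3 comparisons stayed within their counting intervals with edgeR's TMM factors, with library totals as factors, and with 5 as pseudocount. The largest move, 1.17 on the log2 scale, was that of BCL2A1 with the larger pseudocount. TMM or total-count scaling moved them by at most 0.0135 on the log2 scale and changed the sign of BAK1 in YA against OA and of BCL2 in OA against control, both near 0. BAK1 and BAX moved inside 1.2-fold under some of these settings.

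Counts of members fell with stricter thresholds by construction. With the interval wholly beyond 1.2-fold, OA had 2 members above control, YA had 0 below control, and 2 were lower in YA than in OA. At 2-fold, YA had 0 members above and 0 below control, OA had 1 above and 0 below, and YA relative to OA had 0 above and 1 below. A minimum mean of 100, like leaving out BCL2A1 (chosen after seeing the data), left 1 member lower in YA against control. Over all genes the 6 counts ran from 2370 to 3315, against 8049 to 10917 with no filter 1404 to 2142 with a minimum mean of 100, and 140 to 639 at 2-fold. Averaging members by the mean turned the antiapoptotic minus proapoptotic difference to 0.80 for OA over control and to -0.76 for YA over OA, and lowered it to 0.04 for YA over control, because BCL2A1 enters with its full size. No paired analysis was possible because each group has 1 library. Depth limits BCL2A1 most, with 5 and 2 counts in control and YA.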
